A study of Mus musculus with 6 samples.

Results

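The Hippo pathway restrains the transcriptional coactivators YAP (gene Yap1) and TAZ (gene Wwtr1). These proteins do not bind DNA themselves and act through the TEAD transcription factors. The kinases LATS1 and LATS2 phosphorylate YAP and TAZ, which holds them in the cytoplasm and marks them for degradation, and scaffold and junction proteins set the activity of these kinases. In pancreatic cancer the pathway is known for its roles in tumour initiation and growth. The 10 genes described here are YAP and TEAD pathway genes chosen by name, with all 6 libraries taken. They comprise the coactivators Yap1 and Wwtr1, the factor Tead1, the target genes Ccn1, Ccn2 and Ankrd1, the regulators Amotl2 and Lats2, which are themselves targets, and the regulators Ajuba and Wwc1. All 10 are among the 25978 genes of the table, and all 10 were among the 15783 genes with enough signal to be tested.

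The cells came from primary pancreatic tumours that arise in KPCY mice on a C57BL/6 background, used at an age between 5 and 7 weeks, and their RNA was sequenced in bulk after sorting. The groups compared were YFP-positive EpCAM- cells (3 libraries) and YFP-positive EpCAM+ cells (3 libraries), where EpCAM is a surface adhesion protein of epithelial cells. Both groups share the genotype, which includes Pdx1-Cre, Trp53 fl/fl and Rosa26LSL-YFP. Pdx1-Cre acts in cells of the pancreatic lineage, so YFP can also mark cells of that lineage that are not tumour cells, and Trp53 is deleted in both groups. The comparison asks how cells without surface EpCAM differ from cells that carry it. Values are log2 levels normalised by the authors, so a difference of 1 is a change by a factor of 2, and sequencing depth is unknown. Wherever 3 values of a group are given, they stand for its replicates 1, 2 and 3 in that order. Over genes, the Pearson r of a pair of libraries was at least 0.977 where both came from the same group and at most 0.883 where they did not. In their fibroblast marker levels, given at the end, EpCAM- replicate 3 was lower and EpCAM+ replicate 1 higher than the other libraries of their groups.

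Of the 10 genes, 3 rose and 3 fell in EpCAM- cells, and 4 did not pass the test. Wwtr1, Tead1 and Lats2 rose, Ccn2, Ajuba and Wwc1 fell, and Yap1, Ccn1, Ankrd1 and Amotl2 did not pass at a limma Benjamini-Hochberg adjusted p of 0.05. Over all tested genes 43.4% passed, 20.3% as higher and 23.1% as lower in EpCAM- cells, so the 6 genes of 10 stand against a high background. For 7 of the 10 genes every EpCAM- library lay to the same side of every EpCAM+ library, as it did for 56.3% of all tested genes. The median log2 fold change of the 10 genes was 0.0068, against 0.0043 for all tested genes.

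TEAD factors recognise the bases GGAATG, and promoter windows are shown because most of the 10 genes hold this run close to an annotated start. Windows from 250 bases before to 50 bases after an annotated start were taken from RefSeq on GRCm38.p6 for the 8 of the 10 genes that matched by symbol, with no window used for Tead1 and Ccn2. The motif searched was GGAATG on either strand, which reads CATTCC on the other strand. It occurred in a window of 7 of the 8 genes, all but Wwc1, and in 16.6% of the 27025 genes with a window. Over single windows the share was 14.7% of 32851, and 1.36% held it more than once, as Ankrd1 and Ajuba did. Several of the genes are widely used TEAD targets, so that count is not independent of how they were chosen, and a match shows letters only, not binding. Each sequence reads 5′ to 3′ on the strand of the gene, with matches in capitals. Ankrd1 and Ccn1 are given as whole windows of 300 bases, and the others as the stretch around their matches.
Ankrd1 (chr19:36119795-36120094, minus strand): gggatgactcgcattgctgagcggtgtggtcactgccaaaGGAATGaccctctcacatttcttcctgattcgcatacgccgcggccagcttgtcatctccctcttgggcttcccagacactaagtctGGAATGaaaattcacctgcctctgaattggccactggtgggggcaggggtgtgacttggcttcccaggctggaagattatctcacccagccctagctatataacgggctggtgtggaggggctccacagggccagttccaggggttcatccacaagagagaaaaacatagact
Ccn1 (chr3:145649936-145650235, minus strand): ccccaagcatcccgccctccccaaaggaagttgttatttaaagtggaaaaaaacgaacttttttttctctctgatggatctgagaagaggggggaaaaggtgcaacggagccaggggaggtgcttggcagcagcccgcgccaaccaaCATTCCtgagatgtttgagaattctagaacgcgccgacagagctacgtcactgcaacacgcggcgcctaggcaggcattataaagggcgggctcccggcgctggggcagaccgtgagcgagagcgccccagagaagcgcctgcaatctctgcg
Amotl2 (chr9:102717699-102717784, plus strand): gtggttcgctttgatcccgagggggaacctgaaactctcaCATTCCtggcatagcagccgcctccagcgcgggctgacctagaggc
Lats2 (chr14:57746074-57746159, minus strand): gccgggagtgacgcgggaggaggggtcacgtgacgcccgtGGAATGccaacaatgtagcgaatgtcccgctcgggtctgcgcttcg
Ajuba (chr14:54577780-54577887, minus strand): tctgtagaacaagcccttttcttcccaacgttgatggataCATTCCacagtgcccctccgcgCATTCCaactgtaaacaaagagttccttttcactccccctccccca
Wwtr1 (chr3:57576001-57576086, minus strand): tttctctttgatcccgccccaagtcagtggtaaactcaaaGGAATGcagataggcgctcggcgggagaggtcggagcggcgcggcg
Yap1 (chr9:8004692-8004777, minus strand): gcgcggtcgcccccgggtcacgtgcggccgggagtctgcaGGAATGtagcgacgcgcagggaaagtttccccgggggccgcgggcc

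The matches differed in place and strand. In Ankrd1 they began 210 and 123 bases before the start, both on the gene's strand. In Ajuba they began 186 and 164 bases before it, both on the other strand. Those of Ccn1 and Amotl2 lay on the other strand, 103 and 65 bases before the start. Those of Yap1 and Wwtr1 lay on the gene's strand, 141 and 136 bases before it. In Lats2 the match, on the gene's strand, began at base 5, counting the start itself as the first. The starts used for Lats2 and Amotl2 lie inside the gene spans given below, not at their 5′ ends. Wwtr1 has a second annotated start, 170 bases after the same match, and the window of a second start of Lats2 held no match. Among the genes with a match, Wwtr1 and Lats2 rose, Ajuba fell and the other 4 did not pass.

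**Figure D1:**
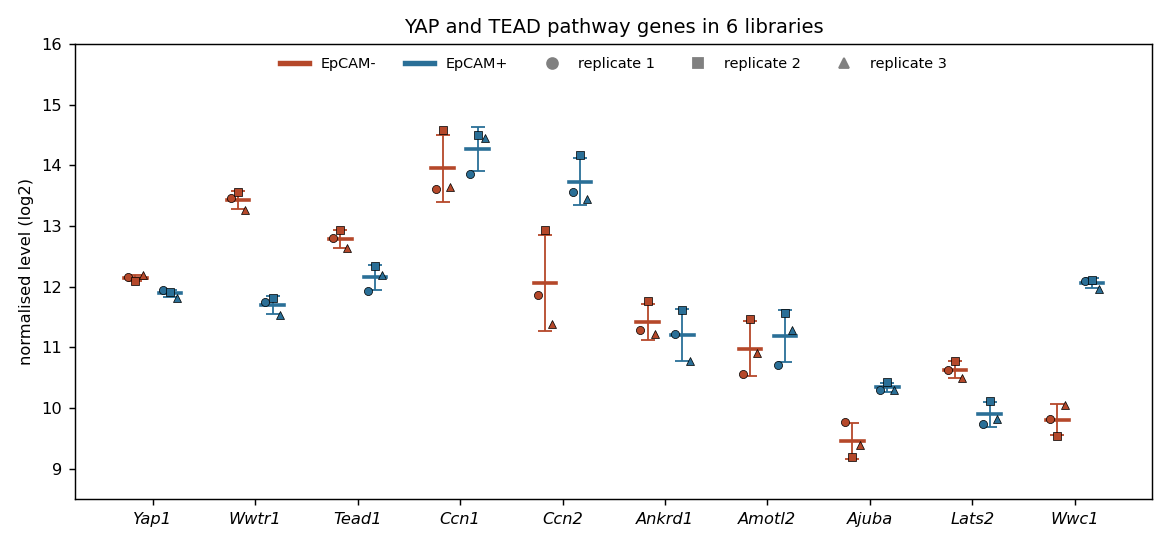
Normalised log2 level of each of the 10 genes (y axis) in EpCAM- (left of each pair) and EpCAM+ libraries. Points are libraries with a shape for each replicate number, thick bars are means and whiskers are 1 SD (n = 3 per group). Wwtr1 and Wwc1 show the widest gaps between groups relative to their spread, and Ccn1, Ankrd1 and Amotl2 overlap.

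Of the coactivator genes, Wwtr1 rose in EpCAM- cells, and Yap1 missed the threshold with a small fold change. Wwtr1 (ENSMUSG00000027803, GRCm38 chromosome 3, 57455649 to 57575910, minus strand), which encodes TAZ, stood at 13.46, 13.55 and 13.26 on the log2 scale in EpCAM- libraries, against 11.75, 11.82 and 11.53 in EpCAM+ libraries. The lowest EpCAM- library lay well above the highest EpCAM+ library. The EpCAM- mean was 13.43 ± 0.15 and the EpCAM+ mean 11.70 ± 0.15 (SD, n = 3 each). The log2 fold change of 1.73 ± 0.13 (SE), or 3.31-fold, had a limma adjusted p of 6.97e-05. Its size exceeded that of 85.9% of tested genes. Yap1 (ENSMUSG00000053110, chromosome 9, 7931999 to 8004596, minus strand), which encodes YAP, stood at 12.17, 12.09 and 12.18 in EpCAM- and at 11.94, 11.91 and 11.81 in EpCAM+ libraries. The groups did not overlap, but the gap was small. Its log2 fold change of 0.26 ± 0.09 (SE, 95% interval between 0.05 and 0.48) missed the threshold with a limma adjusted p of 0.0545, and it passed under upper quartile scaling (adjusted p = 0.0295) and with array weights (adjusted p = 0.0286) while the alternatives together spanned 0.0286 to 0.254. In bulk RNA, fewer cells of a type and less RNA per cell cannot be told apart.

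The balance of the pair was also compared. Within a library, the log2 ratio of Wwtr1 to Yap1 was 1.30, 1.46 and 1.08 for EpCAM- cells, against -0.18, -0.09 and -0.29 for EpCAM+ cells. The groups were far apart relative to their spread. The difference between group means was 1.47, and a two-sided exact permutation test gave p = 0.1, the smallest that 3 against 3 libraries allow. Per kilobase of annotated exon, Wwtr1 exceeded Yap1 in every library, by 4.77, 5.34 and 4.08 times in EpCAM- and by 1.71, 1.82 and 1.59 times in EpCAM+ libraries. The excess in EpCAM+ libraries rests on the exon lengths, 4779 bases for Wwtr1 and 9257 for Yap1. Before division by length, Wwtr1 lay below Yap1 there, as the log2 ratios show. These lengths came from all annotated transcripts, so levels per kilobase are approximate. Wwtr1 then made up 82.4% ± 1.96 of the summed level per kilobase of the pair in EpCAM- libraries, against 63.0% ± 1.57 in EpCAM+ ones (SD, n = 3 each). That sum was 2862, 2990 and 2555 units per kilobase in EpCAM- and 1145, 1171 and 1007 in EpCAM+ libraries, where a unit is the back-transformed normalised value. The groups did not overlap in that sum.

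**Figure D2:**
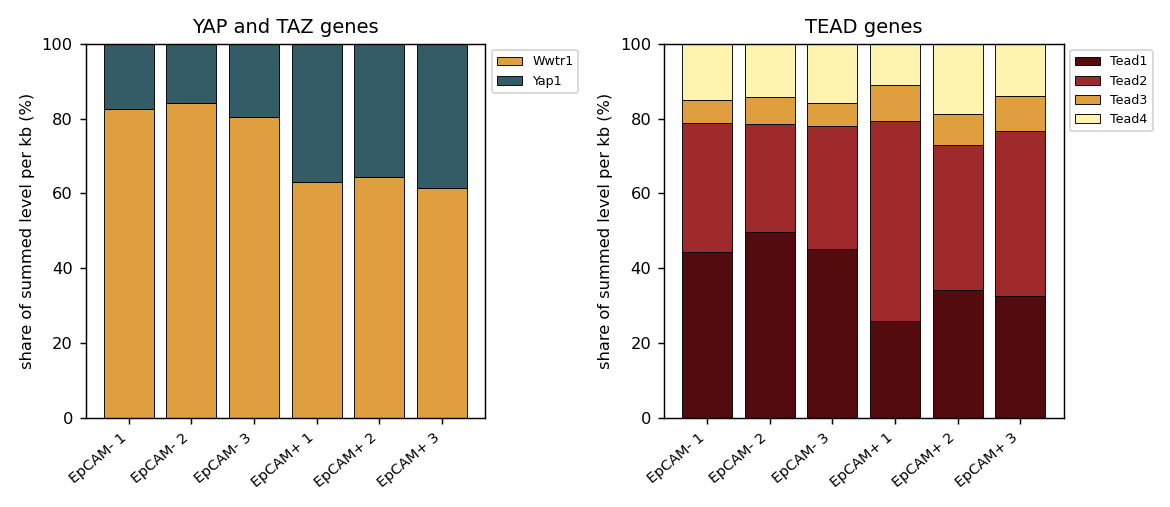
Share of the summed back-transformed level per kilobase of exon (y axis, percent) held by Wwtr1 and Yap1 (left) and by the 4 TEAD genes (right) in each library, EpCAM- before EpCAM+. Wwtr1 holds at least 80.3% of the pair in EpCAM- and at most 64.5% in EpCAM+ libraries, and Tead1 is the largest TEAD share in EpCAM- and Tead2 in EpCAM+ libraries. The order of genes in EpCAM+ libraries rests on division by exon length. Before it, Yap1 lies above Wwtr1 and Tead1 above Tead2 in each of these libraries.

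Among the TEAD genes, Tead1 rose and Tead2 and Tead3 fell. Tead1 (ENSMUSG00000055320, chromosome 7, 112679318 to 112906807, plus strand), a factor through which YAP and TAZ reach DNA, stood at 12.80, 12.93 and 12.63 in EpCAM- and at 11.93, 12.34 and 12.18 in EpCAM+ libraries. The groups did not overlap, and EpCAM+ replicate 1 was the lowest library. Its EpCAM- mean was 12.78 ± 0.15 and its EpCAM+ mean 12.15 ± 0.21 (SD, n = 3 each), and its log2 fold change was 0.63 ± 0.14 (SE, limma adjusted p = 0.0106). Tead2 (-0.45 ± 0.15 SE, adjusted p = 0.0458) and Tead3 (-0.44 ± 0.14 SE, adjusted p = 0.0349) passed narrowly. Both lost the call without EpCAM- replicate 3 (Tead2 adjusted p = 0.120, Tead3 adjusted p = 0.102), without EpCAM+ replicate 1 (Tead2 0.126, Tead3 0.115) and without EpCAM+ replicate 3 (Tead2 0.0865, Tead3 0.0909). Tead2 also lost it without EpCAM- replicate 2 (adjusted p = 0.118), and Tead3 without EpCAM- replicate 1 (adjusted p = 0.0607) or EpCAM+ replicate 2 (adjusted p = 0.0721). Both calls were also lost with no filter on low values (Tead2 0.0688, Tead3 0.0545). Tead2 was lost under TMM scaling (0.0587), upper quartile scaling (0.0533) and no variance trend (0.0716), and Tead3 under quantile normalisation (0.0689) and with the replicate number as a term (0.0522). Tead4 did not pass, with a log2 fold change of 0.11 (adjusted p = 0.679).

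Per kilobase of exon, Tead1 held 44.4%, 49.6% and 44.99% of the summed level of the 4 TEAD genes in EpCAM- libraries, against 25.9%, 34.1% and 32.7% in EpCAM+ libraries. Tead2 held 34.6%, 29.0% and 32.9% in EpCAM- and 53.5%, 38.7% and 44.1% in EpCAM+ libraries. Neither share overlapped between the groups. The lead of Tead2 in EpCAM+ libraries rests on the exon lengths, 13570 bases for Tead1 and 4788 for Tead2. Before division by length, Tead2 stood at 11.47, 11.02 and 11.11 there, below Tead1 in each library. The sum over the 4 genes overlapped, with 1181, 1158 and 1038 units per kilobase in EpCAM- and 1110, 1121 and 1050 in EpCAM+ libraries. Of the vestigial-like cofactors, which compete with YAP for TEAD, Vgll3 and Vgll4 did not pass and Vgll1 and Vgll2 were too low to be tested. In all, 1 of the 6 tested TEAD and vestigial-like genes rose and 2 fell, where 20.3% of all tested genes rose and 23.1% fell. Without EpCAM- replicate 3, EpCAM+ replicate 1 or EpCAM+ replicate 3, only Tead1 of these 6 genes passed.

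Of the secreted targets, Ccn2 fell in EpCAM- cells and Ccn1 did not pass. Ccn2 (ENSMUSG00000019997, chromosome 10, 24595442 to 24598683, plus strand), also known as connective tissue growth factor, stood at 11.86, 12.93 and 11.38 in EpCAM- and at 13.56, 14.17 and 13.45 in EpCAM+ libraries. Every EpCAM- library lay below every EpCAM+ library, with EpCAM- replicate 2 the closest. The EpCAM- mean was 12.06 ± 0.79 and the EpCAM+ mean 13.73 ± 0.39 (SD, n = 3 each). The log2 fold change was -1.67 ± 0.40 (SE, limma adjusted p = 0.0132), or 3.19-fold lower in EpCAM- cells. Without EpCAM- replicate 3 and EpCAM+ replicate 1 together the call was lost, with a log2 fold change of -1.42 and an adjusted p of 0.0586, and the alternatives spanned 0.00136 to 0.0586. Ccn1 (ENSMUSG00000028195, chromosome 3, 145646976 to 145649981, minus strand), which encodes the related matricellular protein CYR61, stood at 13.62, 14.58 and 13.65 in EpCAM- and at 13.86, 14.51 and 14.45 in EpCAM+ libraries. These values overlapped, and the log2 fold change of -0.32 had a 95% interval between -1.05 and 0.40 (adjusted p = 0.430). The log2 ratio of Ccn2 to Ccn1 was -1.76, -1.65 and -2.27 in EpCAM- and -0.30, -0.33 and -0.997 in EpCAM+ libraries, so it did not overlap between groups. Its exact permutation p was 0.1, and this ratio was chosen after the values were seen, as 1 of 4 ratios with an adjusted p of 0.1 each.

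Of the whole CCN family, Ccn2 was the member that fell, while Ccn3, Ccn4 and Ccn5 rose, out of 5 tested. Over all tested genes 20.3% rose and 23.1% fell. Ccn4 stood at 9.97, 11.49 and 10.59 in EpCAM- and at 6.92, 5.78 and 6.62 in EpCAM+ libraries, and rose by 4.25 ± 0.44 (SE, adjusted p = 0.000316). Ccn3 rose by 3.18 ± 0.25 (SE) and Ccn5 by 2.72 ± 0.36 (SE). Per kilobase of exon the highest of the family was Ccn1 in every library, with a mean of 8233 units in EpCAM- and 9988 in EpCAM+ libraries.

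Ankrd1 and Amotl2, which are common readouts of YAP activity, did not pass. Ankrd1 (ENSMUSG00000024803, chromosome 19, 36111961 to 36120099, minus strand), a nuclear ankyrin repeat protein first known from heart muscle, stood at 11.28, 11.76 and 11.22 in EpCAM- and at 11.22, 11.62 and 10.77 in EpCAM+ libraries. Its groups overlapped, with a log2 fold change of 0.22, a 95% interval between -0.35 and 0.79 and an adjusted p of 0.498. Amotl2 (ENSMUSG00000032531, chromosome 9, 102716672 to 102733418, plus strand), an angiomotin that binds YAP and holds it at junctions, stood at 10.56, 11.47 and 10.90 in EpCAM- and at 10.71, 11.56 and 11.28 in EpCAM+ libraries. Its log2 fold change of -0.21 had a 95% interval between -0.88 and 0.47 (adjusted p = 0.599), and without EpCAM- replicate 1 it was 0.0023. The intervals of both genes leave room for a change of up to 0.79 upwards for Ankrd1 and 0.88 downwards for Amotl2 on the log2 scale.

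**Figure D3:**
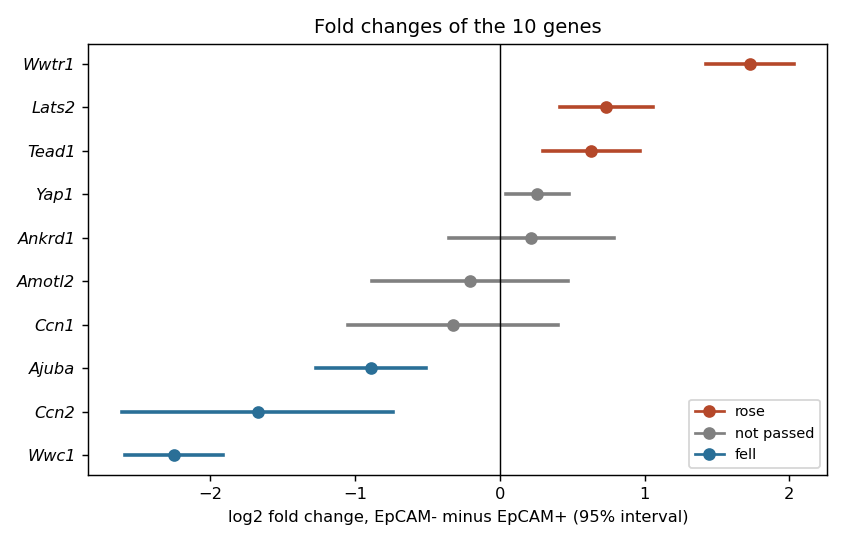
Log2 fold change, EpCAM- minus EpCAM+ (x axis), of the 10 genes with the 95% interval of the limma fit as bars. The intervals of Ccn1, Ankrd1 and Amotl2 span 0, and that of Yap1 lies just above 0 although its adjusted p is 0.0545.

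The regulators of the cascade split as well. Lats2 (ENSMUSG00000021959, chromosome 14, 57689662 to 57758388, minus strand), the kinase that phosphorylates YAP and TAZ and is itself a target, stood at 10.63, 10.77 and 10.49 in EpCAM- and at 9.74, 10.12 and 9.82 in EpCAM+ libraries. It rose without overlap, by 0.74 ± 0.14 (SE, limma adjusted p = 0.00463). Wwc1 (ENSMUSG00000018849, chromosome 11, 35838400 to 35980527, minus strand), which encodes KIBRA, a scaffold that activates the LATS kinases, stood at 9.82, 9.54 and 10.05 in EpCAM- and at 12.09, 12.11 and 11.96 in EpCAM+ libraries. By log2 fold change it differed most of the 10 genes, with an EpCAM- mean of 9.80 ± 0.26 and an EpCAM+ mean of 12.05 ± 0.08 (SD, n = 3 each). The log2 fold change was -2.25 ± 0.14 (SE, adjusted p = 3.58e-05), or 4.75-fold lower in EpCAM- cells. Ajuba (ENSMUSG00000022178, chromosome 14, 54567472 to 54577558, minus strand), a LIM protein that binds and restrains the LATS kinases, stood at 9.78, 9.19 and 9.39 in EpCAM- and at 10.30, 10.43 and 10.30 in EpCAM+ libraries. It fell without overlap, by 0.89 ± 0.16 on the log2 scale (SE, adjusted p = 0.00414).

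The nearest relatives of Lats2 and Wwc1 did not pass the test. Lats1, the other LATS kinase, stood at 11.17, 11.41 and 11.01 in EpCAM- and at 11.42, 11.67 and 11.60 in EpCAM+ libraries and did not pass (log2 fold change -0.37, adjusted p = 0.0601). It passed without EpCAM- replicate 2 (adjusted p = 0.0271), after quantile normalisation (0.0332), with the replicate number as a term (0.0486) and with array weights (0.0263). The log2 ratio of Lats2 to Lats1 was -0.55, -0.64 and -0.52 in EpCAM- and -1.69, -1.55 and -1.78 in EpCAM+ libraries. Wwc2, a paralog of Wwc1, did not pass either (0.34, adjusted p = 0.0621), but it did without EpCAM+ replicate 2 (adjusted p = 0.0329), under upper quartile scaling (0.0346) and with array weights (0.0393). The log2 ratio of Wwc2 to Wwc1 was 1.93, 2.16 and 1.75 in EpCAM- and -0.69, -0.49 and -0.75 in EpCAM+ libraries. Both ratios were without overlap, with an exact permutation p of 0.1 each, and both were chosen after the values were seen.

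The kinases, scaffolds and membrane activators of the Hippo cascade changed in both directions. Of 15 tested genes, 5 rose, 4 fell and 6 did not pass, with a median log2 fold change of 0.27 against 0.0043 for all tested genes. For this list and the LIM list below, the share over all tested genes was 20.3% risen and 23.1% fallen. The largest changes were those of Wwc1, of Frmd6, a FERM-domain protein of the cell cortex (1.60 ± 0.34 SE, adjusted p = 0.00872), of Lats2, and of Taok1, a kinase upstream in the cascade (0.70 ± 0.15 SE, adjusted p = 0.00952). Frmd6 stood at 12.27, 13.21 and 13.03 in EpCAM- and at 10.90, 11.90 and 10.91 in EpCAM+ libraries. Without EpCAM- replicate 3 and EpCAM+ replicate 1 together, 3 of the 15 passed in place of 9, and Frmd6 (log2 fold change 1.34, adjusted p = 0.0740) and Taok1 (0.58, adjusted p = 0.101) were among those lost. Of the LIM proteins, Ajuba and its relative Wtip (-0.55 ± 0.14 SE, adjusted p = 0.0183) fell, and the other 4 of 6 did not pass. Of these, Zyx and Lpp overlapped between groups. Trip6 (-0.36, adjusted p = 0.062) and Limd1 (-0.14, adjusted p = 0.271) lay lower in every EpCAM- library. Trip6 passed with array weights (adjusted p = 0.0225) and without EpCAM- replicate 2 (0.0353). The call for Wtip was lost without EpCAM- replicate 3 (adjusted p = 0.0569), EpCAM+ replicate 2 (0.0590) or EpCAM+ replicate 3 (0.0704).

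Of 16 angiomotin, junction and polarity genes that act on YAP, 2 rose, 5 fell and 9 did not pass. Over all tested genes 20.3% rose and 23.1% fell, 43.4% together, so this count lies near that share. Crb3, an apical polarity protein, stood at 4.45, 3.85 and 3.02 in EpCAM- and at 10.30, 10.32 and 10.29 in EpCAM+ libraries, and Patj, its partner scaffold, fell by 2.60 ± 0.16 (SE, adjusted p = 3.3e-05). Fat4 and Dchs1, large cadherins known as receptor and ligand, both rose. Fat4 stood at 8.61, 10.06 and 10.54 in EpCAM- and at 5.86, 6.38 and 6.56 in EpCAM+ libraries. It rose by 3.47 ± 0.48 (SE, adjusted p = 0.0013). Dchs1 stood at 6.67, 8.95 and 6.88 in EpCAM- and at 4.66, 4.21 and 4.72 in EpCAM+ libraries. It rose by 2.97 ± 0.59 (SE, adjusted p = 0.00626), with EpCAM- replicate 2 well above the others. None of these 4 overlapped between groups.

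A published human signature of 22 YAP and TAZ targets, read as mouse symbols, showed no common direction. Of its 22 tested genes, 6 rose, 7 fell and 9 did not pass, with a median log2 fold change of 0.13. The share over all tested genes was 20.3% risen and 23.1% fallen. Without the 5 genes already described, 5 of 17 rose and 6 fell. Axl, a receptor tyrosine kinase, stood at 14.78, 14.03 and 14.36 in EpCAM- and at 11.64, 11.80 and 11.35 in EpCAM+ libraries and rose by 2.79 ± 0.21 (SE, adjusted p = 7.8e-05). F3, the coagulation starter tissue factor, stood at 9.84, 10.49 and 10.92 in EpCAM- and at 12.94, 13.00 and 13.16 in EpCAM+ libraries and fell by 2.62 ± 0.26 (SE, adjusted p = 0.000259). The growth factor carrier Igfbp3 rose by 2.14 ± 0.40 (SE) and the secreted protein gene Ccdc80 by 2.08 ± 0.41 (SE). The mean log2 level over the 22 genes was 10.88, 11.07 and 10.92 in EpCAM- and 10.85, 11.03 and 10.77 in EpCAM+ libraries, and these overlapped. Without EpCAM- replicate 3 and EpCAM+ replicate 1 together, 4 of the 22 rose and 5 fell.

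**Figure D4:**
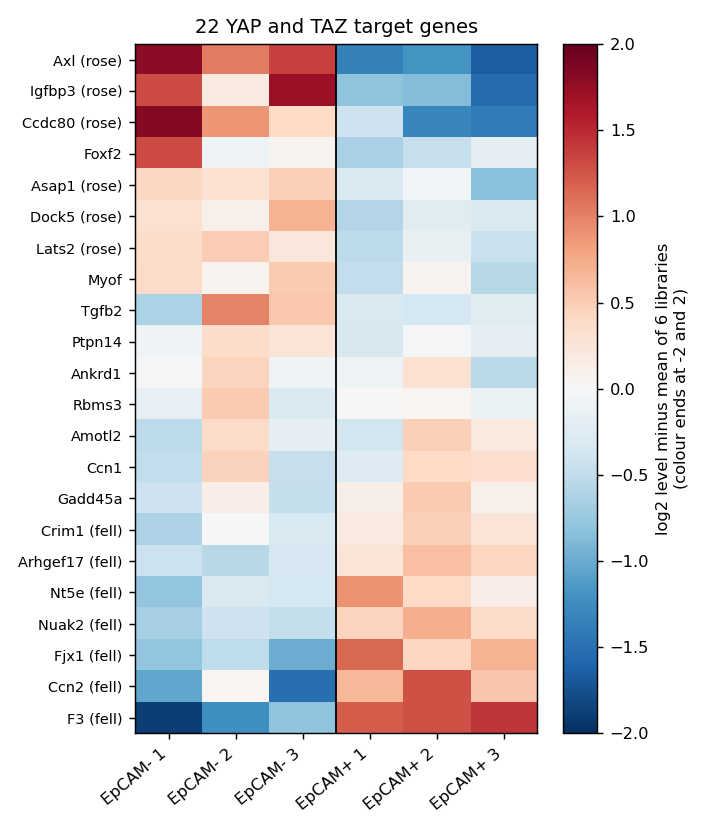
Log2 level of 22 YAP and TAZ target genes minus the mean of the 6 libraries (colour, ending at -2 and 2), with genes down the page in order of fold change and libraries across, EpCAM- left of EpCAM+. The 6 genes marked as risen average higher at left, the 7 marked as fallen average higher at right, and the 9 unmarked genes did not pass.

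The target genes differed between replicates of a group as well as between groups. Ccn1, Ccn2, Ankrd1 and Amotl2 were each highest in replicate 2 of the EpCAM- and of the EpCAM+ libraries, and so were Wwtr1, Tead1 and Lats2. That makes 7 of the 10 genes, against 11.2% of all tested genes, a count made after the values were seen. In EpCAM- libraries, replicate 2 lay above the group mean by 0.87 for Ccn2, by 0.63 for Ccn1, by 0.49 for Amotl2 and by 0.34 for Ankrd1 on the log2 scale. In EpCAM+ libraries the same distances were 0.44, 0.24, 0.38 and 0.42. Of 10 immediate early genes such as Fos, which respond to stress and cell handling, 5 were highest in replicate 2 of both groups. Taken by group, 8 of these 10 were highest in EpCAM- replicate 2, where 32.0% of all tested genes were, and 6 in EpCAM+ replicate 2, where 32.2% were. Averaged over the 10 genes, their log2 levels came to 13.97, 14.20 and 13.71 in EpCAM- libraries, against 14.25, 14.53 and 14.42 in EpCAM+ libraries. Of these genes 0 rose, and Ier2, Dusp1 and Zfp36 fell, where 20.3% of all tested genes rose and 23.1% fell. All 3 calls were lost without EpCAM+ replicate 2 (adjusted p = 0.0648 for Ier2, 0.108 for Dusp1 and 0.0526 for Zfp36) and without EpCAM+ replicate 3 (0.0788 for Ier2, 0.0756 for Dusp1 and 0.0651 for Zfp36). Without EpCAM- replicate 3 the calls of Ier2 (0.0639) and Dusp1 (0.0927) were lost, without EpCAM+ replicate 1 those of Dusp1 (0.0719) and Zfp36 (0.0670), and without EpCAM- replicate 1 that of Dusp1 (0.0768). The part of these genes in the replicate pattern was not tested.

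**Figure D5:**
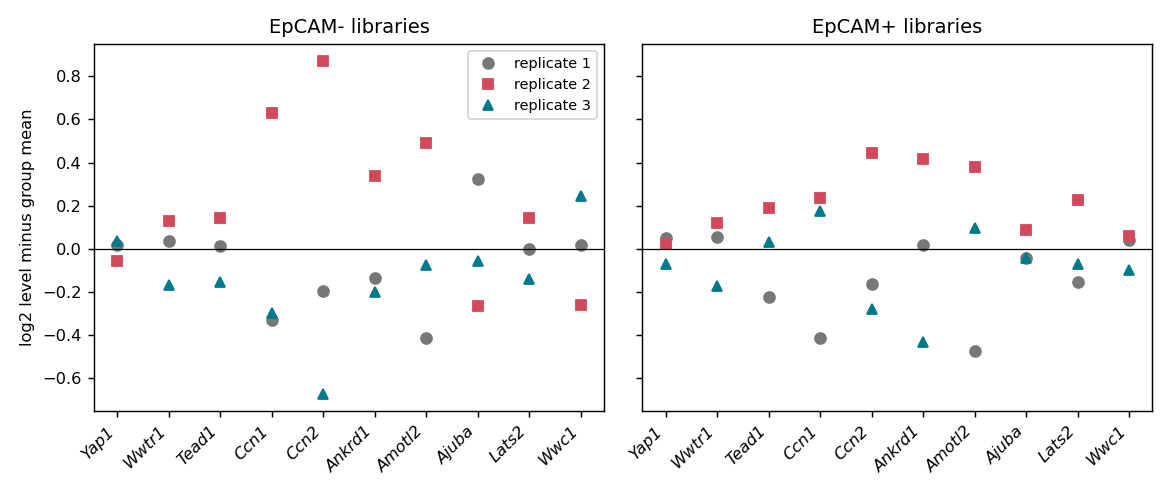
Log2 level of each of the 10 genes minus the mean of its group (y axis) in EpCAM- (left) and EpCAM+ libraries, with a shape and colour for each replicate number. Replicate 2 lies highest for 7 genes in both panels, by up to 0.87 for Ccn2 in EpCAM- libraries.

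Per kilobase of exon, the order of the 10 genes also differed between groups. In EpCAM- libraries Ccn1 was highest, followed by Wwtr1 with a mean of 2312 units, Ccn2 with 1653, Ankrd1 with 964, Tead1 with 522, Yap1 with 490.2, Amotl2 with 332, Lats2 with 228, Ajuba with 195 and Wwc1 with 182. Between neighbours in this order, library values did not overlap for Ccn1 and Wwtr1, Ankrd1 and Tead1, and Yap1 and Amotl2, and overlapped for the other 6 pairs. In EpCAM+ libraries Ccn1 was followed by Ccn2 with 4868 units, Wwc1 with 858, Ankrd1 with 839.9, Wwtr1 with 698, Yap1 with 409, Amotl2 with 381, Ajuba with 357, Tead1 with 338 and Lats2 with 137. There the neighbours without overlap were Ccn1 and Ccn2, Ccn2 and Wwc1, Wwtr1 and Yap1, and Tead1 and Lats2, and the other 5 pairs overlapped. Exon lengths came from all annotated transcripts, so these levels are approximate.

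Markers of the sort and of other cell types were read in the same libraries. Of 8 epithelial markers all fell, Epcam by 7.00 ± 0.30 (SE, adjusted p = 7.43e-06), and of 8 mesenchymal markers all rose. For each marker list, the share over all tested genes was 20.3% risen and 23.1% fallen. Of 10 fibroblast markers 7 rose and 1 fell, and their summed level was 87567, 67845 and 15251 units in EpCAM- and 10243.5, 1515 and 1827 units in EpCAM+ libraries. Of 8 tested immune markers all fell, with summed levels between 329 and 564 units in EpCAM- libraries. In EpCAM+ libraries the sums were 4524, 1002 and 1772 units, so replicate 1 was also highest in these markers. Cd68 passed in 9 of 18 alternatives and Adgre1 and Tyrobp in 12 of 17 each, while Csf1r and Lyz2 passed in all 18. The T cell marker Cd3e was too low to be tested and lay close to the lowest value of the table in every library. Of 8 acinar markers 7 fell, with sums of at most 546 units in EpCAM- and at least 45216 units in EpCAM+ libraries. Endothelial markers were low, with sums of at most 200 units in EpCAM- and 148 units in EpCAM+ libraries, and 1 of 4 tested, Kdr, passed as higher (adjusted p = 0.0485), although its groups overlapped and it passed in 10 of 18 alternatives, with adjusted p values up to 0.281. Of 7 tested pericyte and smooth muscle markers 1 rose and 2 fell, with sums between 2564 and 3574 units in EpCAM- and between 2646 and 4652 units in EpCAM+ libraries. Of the 2 that fell, Rgs5 passed in 13 and Notch3 in 14 of 18 alternatives. The fibroblast marker that fell, Col14a1, passed in 12 of 18. Of the 7 that rose, Lum overlapped between groups and passed in 14 of 18, with limma adjusted p values up to 0.0982. Col1a1, Col1a2 and Dpt passed in 17 of 18 each, and Pdgfra, Pdgfrb and Dcn in all 18. The part of these cell types in the results was not tested. The libraries that stood apart in fibroblast markers were the lowest of the EpCAM- group and the highest of the EpCAM+ group, so leaving them out widens the gap in these markers and does not test fibroblast content. Without these 2 libraries, EpCAM- replicate 3 and EpCAM+ replicate 1, Wwtr1 rose by 1.84, Tead1 by 0.60 and Lats2 by 0.73, and Wwc1 fell by 2.35 and Ajuba by 0.88 on the log2 scale. These 5 passed, with adjusted p values between 0.000557 and 0.0499, and Ccn2 did not.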

How the data were processed

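For bulk RNA of sorted cells the KAPA mRNA HyperPrep kit was used, per the labels' protocols. The submitters' processing notes name RSEM, DESeq2 1.24.0, STAR 2.5.2 and build GRCm38 without their role or order. The deposited values are log2 levels normalised by the authors, between -1.52 and 20.05, and the transform and annotation are not given in the sources used here. Depth is unknown, so no interval that needs it is given.

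Symbols and coordinates came from GENCODE M21, which matched 25846 of 25978 identifiers and left 132. Pals1 was found as Mpp5. Genes with a mean back-transformed level of at least 10 entered the fit, 15783 in all, made in limma 3.58.1 (R 4.3.3) with a variance trend and without covariates. Two-sided p-values were adjusted after Benjamini and Hochberg across this whole set, and 0.05 was the threshold. Levels per kilobase use the back-transformed value over the union of annotated exons. The strand setting of the counting was not given in the sources, and genes overlapping Ccn2 on the other strand (Gm15270, mean log2 level 3.77) and Lats2 on the same strand (Gm49361) could share reads. Replicates are called biological in the series text, and no label ties libraries to animals, so the p-values reflect only how these samples vary.

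The 10 genes, the lists and the tests were chosen with earlier results of these data known. The genes named in each further list are the 4 with the largest change past the test and all TEAD genes. Lats1, Wwc2, Zyx, Lpp, Trip6, Limd1, Vgll3, Vgll4, Kdr, the single immune, pericyte and fibroblast markers named and the immediate early genes were chosen after their values were seen. Alternatives were pseudocounts, filters, scalings, array weights, no trend, the replicate number as a term and libraries left out. An allele of the genotype is not reported here.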

Additional observations from a re-analysis of the deposited data

How the results depend on the processing

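Over the 18 alternatives for each of the 10 genes, 176 of 180 fold changes kept their direction and their side of the threshold. The filters, no trend and the replicate number as a term leave a fold change as it is, and the pseudocounts barely moved it. These settings could not turn the direction of the 10 genes and bear only on the side of the threshold. The exceptions were Yap1, Ccn2 as given above, and Amotl2, whose fold change was 0.0023 without EpCAM- replicate 1 and lay between -0.4497 and 0.0023 over the libraries left out singly. Leaving out EpCAM- replicate 3 and EpCAM+ replicate 1 together gave 4369 calls against 6850 over the table, 3 against 9 in the kinase list, 1 against 3 in the TEAD and vestigial-like list and 1 against 2 in the LIM list. With single libraries left out, the number called was between 4987 and 7300 over all genes, between 7 and 9 in the kinase list, between 5 and 9 in the junction list, between 12 and 15 among the 22 targets, between 1 and 2 in the TEAD list and between 1 and 3 in the LIM list. It stayed at 6 of the 10 genes and at 4 in the CCN family, and the Wwtr1 to Yap1 difference lay between 1.38 and 1.57. Quantile normalisation moved the median of all fold changes to 0.14, against 0.0043, and called 7487 genes, 4241 higher and 3246 lower, where 3197 were higher and 3653 lower before. Libraries with the same replicate number deviated together unevenly, with correlations of 0.41, 0.04 and 0.17 for numbers 1, 2 and 3. Unlike numbers were not correlated for comparison, so these values do not decide whether the numbers are pairs. The main fit did not take them as pairs. With the replicate block, 7090 genes and 6 of the 10 genes passed, Ccn2 at an adjusted p of 0.00136. The block gave 11 calls in the kinase list, 9 in the junction list, 15 among the targets, 2 each in the TEAD and LIM lists and 4 in the CCN family. Each number occurs once per group, so the block cannot change the Wwtr1 to Yap1 difference of 1.47. The permutation p of that difference was 0.25 with the block, which allows fewer arrangements, against 0.1 without it. Only 3 libraries per group limit the precision, and what the authors' transform does to low values was not tested.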

Other observations

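Over the 6 libraries, each profile was centred on its mean and compared by Euclidean distance with those of all other tested genes. The 3 genes closest to Yap1 were Gnl2, Hspa14 and Dnttip2, at distances of 0.06 to 0.07 on the log2 scale. Those closest to Wwtr1 were Tpst1, Stx2 and Dcbld2, at 0.19 to 0.23, and those closest to Tead1 were Pxk, Gm45632 and Mphosph9, at 0.13 to 0.16.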
